A study of Mus musculus with 2 samples.

Results

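The genes described here are the mouse microRNA (miRNA) genes whose names carry a number from 1000 to 3999, measured in adrenals of newborn B6NCrl mice. They were taken by the symbol that the GENCODE annotation gives each gene row, and 9 genes in this range of numbers were then set aside by the rule: Mir1247, Mir3074-1 and the genes at chr12:109563692-109747960 (mm10), in the imprinted Dlk1-Dio3 domain. This left 147 of 1973 gene rows. Mir1906-1, in an exon of Meg3 in the same domain, lies outside that span and stayed in the set with no count. The genes set aside held more counts than the set: with them the share of the library described below would be 0.357% in place of 0.124%. Small RNA below 30 nucleotides was sequenced from 2 pups at postnatal day 0, with 1 library from both adrenals of each pup, and both pups came from 1 pregnancy. The pups form a single untreated group, sex was not collected, and no second tissue, genotype or treatment was measured. The labels give both samples the same donor identifier although they name separate pups, so the spread between the libraries may be technical.

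An animal miRNA is cut from a hairpin in a longer transcript, first in the nucleus by Drosha with its partner Dgcr8 and then in the cytoplasm by Dicer. The mature strand, loaded into an Argonaute protein, finds target messages mainly through its seed, bases 2 to 8. Names are numbered in the order in which miRNAs were reported, so numbers of this height were mostly given to genes found by deep sequencing, after the abundant miRNAs had been named. Several such genes are known to leave the standard route: a mirtron is a short intron that is spliced out whole and folds into the hairpin without Drosha, and some hairpins overlie a tRNA.

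The results turn on the miRNAs whose genes held most of the reads and on the gene that differed most between the pups, whose mature sequences follow. They are RefSeq sequences on GRCm38.p6, written 5′ to 3′ with the seed in capitals. The deposited counts are per gene, so they join both arms of a hairpin (5p and 3p) and do not tell which strand was read.
miR-1983: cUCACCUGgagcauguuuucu
miR-1306-5p: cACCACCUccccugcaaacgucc
miR-1306-3p: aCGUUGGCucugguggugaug
miR-3102-5p: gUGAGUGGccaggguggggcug
miR-3102-3p: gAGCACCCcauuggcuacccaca
miR-1981-5p: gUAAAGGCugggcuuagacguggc
miR-1981-3p: cAUCUAACccuggccuuugac
miR-3099-5p: cCAGCUUCcuuccagcccuug
miR-3099-3p: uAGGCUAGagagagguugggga
miR-3105-5p: aGAGCAAGcccguaagcagcgu
miR-3105-3p: aCUGCUUAugagcuugcacucc

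Reads of the late-named genes were few and came from a handful of hairpins. Levels are given as CPM, the reads of a gene scaled to a library of 1000000, over the reads counted on the same strand as the miRNA genes, 1131762 in pup 1 and 3327743 in pup 2. In pup 1 the 147 genes together held 1481 counts, or 0.131% of the library (95% Clopper-Pearson interval 0.124 to 0.138). In pup 2 they held 3897 counts, or 0.117% (0.113 to 0.121). The mean share was 0.124% ± 0.00972 (SD, n = 2). Intervals in this text cover counting error only, with each read taken as independent. PCR copies of 1 molecule are counted as separate reads, so the intervals may be too narrow. At least 1 count was found for 81 of the 147 genes (55.1%), against 32.2% of all gene rows. At 10 CPM or more in both pups, taken as detected, were 13 genes (8.84%), against 13.9% of all gene rows. The 10 leading genes took 82.0% of the set's counts in pup 1 and 85.1% in pup 2.

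**Figure D1:**
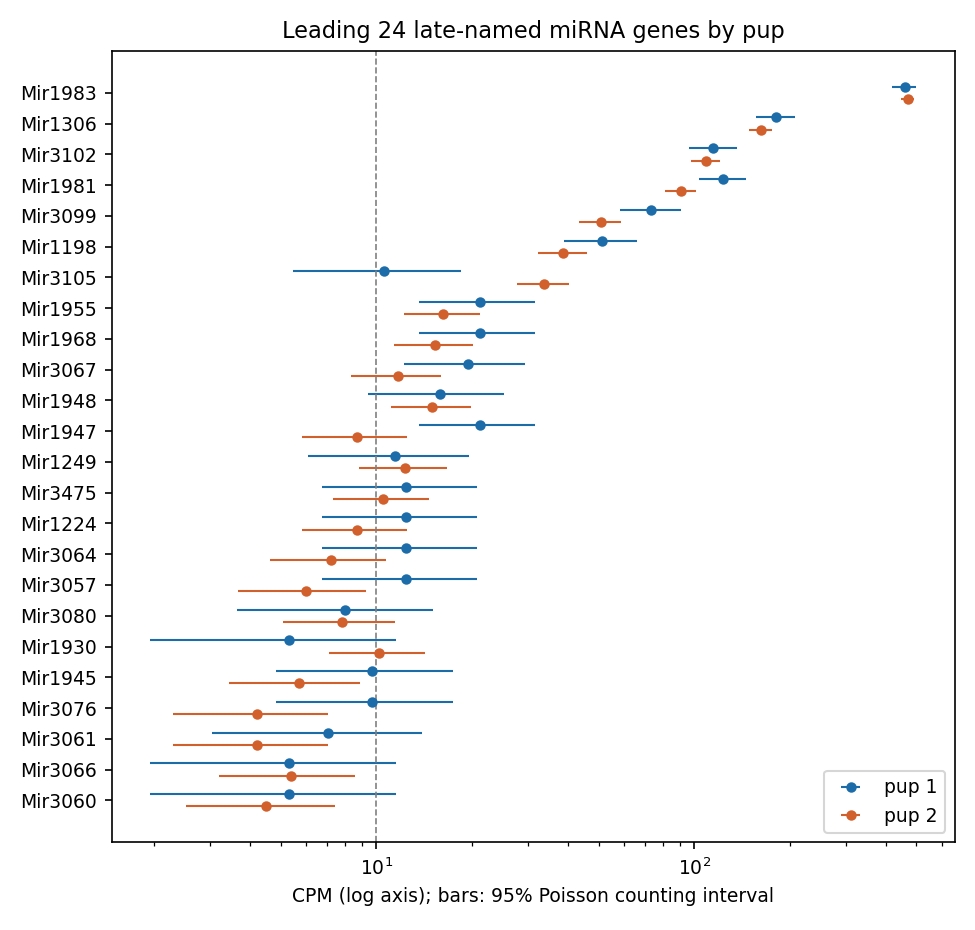
CPM (log axis) of the 24 late-named miRNA genes with the highest mean level, with pup 1 and pup 2 as separate points, bars for the 95% Poisson counting interval, and a dashed line at 10 CPM. Mir1983, at 459 and 469 CPM, stands apart from Mir1306, the next gene. The 6 leading genes, Mir1955 and Mir1968 have both intervals wholly above the dashed line.

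Mir1983 was the most abundant of the set. It had 519 counts in pup 1 and 1560 in pup 2, which is 459 CPM (95% Poisson interval 420 to 499.8) and 469 CPM (446 to 493). Its level was alike in both pups, with a mean of 464 ± 7.22 CPM (SD, n = 2) and rank 114 among all gene rows. This gene alone gave 37.5% of the set's counts, as a mean over the pups. Its hairpin lies at chr13:21896918-21897049 on the minus strand of mm10, outside any other GENCODE gene and over a tRNA gene that RefSeq places at chr13:21896938-21897031, named n-TItat14. Of the bases of mature miR-1983, 13 lie inside that tRNA gene and 8 beyond its end of lower coordinate. The hairpin is shown because it holds the whole tRNA span, with the mature stretch in capitals. No other of the 147 hairpins overlies a tRNA gene in RefSeq. Whether the counted reads are a miRNA or pieces of the tRNA precursor was not tested, as the tables hold no read lengths or ends.
Mir1983 hairpin: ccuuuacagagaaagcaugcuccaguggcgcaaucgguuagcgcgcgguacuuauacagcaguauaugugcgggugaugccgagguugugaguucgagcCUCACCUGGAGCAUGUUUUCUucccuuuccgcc

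Mir1306 followed, and it lies in an exon of Dgcr8, the gene of the RNA-binding partner of Drosha. The hairpin, at chr16:18284239-18284317 on the minus strand, overlaps coding sequence. It had 204 and 538 counts, or 180 CPM (156 to 207) in pup 1 and 162 CPM (148 to 176) in pup 2. The intervals overlap, and the ratio of pup 2 to pup 1 was 0.897 (95% exact conditional interval 0.762 to 1.06). It was 1 of 10 genes of the set whose hairpin overlaps coding sequence and no untranslated region. The overlap asked for was 1 base or more, and Mir3076 passes the end of an intron of Tkt by only 1 base. Of these 10 genes 7 had a count, and only Mir1306 was detected. Of 55 other matched genes so placed, 20 had a count and 3 were detected.

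Hairpins that coincide with a whole short intron included Mir3102 and Mir1981, the next genes by level. A hairpin was taken as spanning an intron if both of its ends lay within 10 bases of the ends of an annotated intron on the same strand, by GENCODE gene models. This limit was chosen after the data were seen. This held for 7 of the 147 genes and for 22 of the 1747 other matched genes. Each of the 7 had a count, and together they took 20.1% of the set's counts in pup 1 and 18.7% in pup 2. Among the 22 others, 14 had a count and 1 was detected.

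Mir3102, which fills a 104-base intron of Arhgef17 (chr7:100882306-100882409, minus strand), had 130 and 362 counts, or 115 CPM (96.0 to 136) and 109 CPM (97.9 to 121). Its levels in the pups overlap. RefSeq lists 4 mature sequences for it, and a noncoding exon of a further Arhgef17 transcript also overlaps its span. Mir1981, which fills an 82-base intron of Marc2 (chr1:184822407-184822488, minus strand), a mitochondrial amidoxime-reducing enzyme gene, had 139 and 302 counts, or 123 CPM (103 to 145) and 90.8 CPM (80.8 to 102). Pup 1 was the higher, and the ratio of pup 2 to pup 1 was 0.739 (0.602 to 0.910). Mir1224 in Vwa5b2 (chr16:20604452-20604536, plus strand), a textbook mirtron, reached 12.4 CPM in pup 1 and 8.71 CPM in pup 2, from 14 and 29 counts, and so missed the detection threshold in pup 2.

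The other intron-spanning genes were low in both pups. Mir3547, in an intron of Baiap3, a gene of dense-core vesicle traffic (chr17:25245551-25245638, minus strand), had 4.42 and 4.81 CPM. Mir3062, over an intron of the purine synthesis gene Pfas, had 5.30 and 2.40 CPM. Mir1982, in an intron of Oaz1, the antizyme gene that restrains polyamine synthesis (chr10:80828797-80828870, plus strand), had 2.65 and 2.40 CPM. A noncoding exon of a further Oaz1 transcript also overlaps the span of Mir1982. Mir1231 in Nav1 had 0 and 2 counts. The hairpins that begin and end exactly at the intron's ends and are in RefSeq follow, with the mature stretches in capitals. Each begins with GU and ends with AG, the bases found at the ends of most introns.
Mir1981 hairpin: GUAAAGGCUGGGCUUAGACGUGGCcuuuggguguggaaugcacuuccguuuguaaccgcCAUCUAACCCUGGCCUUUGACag
Mir1224 hairpin: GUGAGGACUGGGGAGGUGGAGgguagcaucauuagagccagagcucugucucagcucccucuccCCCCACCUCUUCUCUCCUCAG
Mir3547 hairpin: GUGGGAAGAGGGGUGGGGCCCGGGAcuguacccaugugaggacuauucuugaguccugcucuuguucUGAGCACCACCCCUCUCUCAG
Mir1982 hairpin: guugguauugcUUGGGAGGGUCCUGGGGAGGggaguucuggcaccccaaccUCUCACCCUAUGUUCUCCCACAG

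A further 14 genes of the set met 1 end of an intron, of which 10 had a count and none was detected. Of 188 other matched genes that met 1 end, 117 had a count and 3 were detected. For most of these it was the 3′ end of the intron, as for Mir3064 in Ddx5, which encodes an RNA helicase known from the Drosha complex, at 12.4 and 7.21 CPM. Mir3076, at the 3′ end of an intron of the transketolase gene Tkt, had 9.72 and 4.21 CPM. For Mir3064 and Mir3076 the level was lower in pup 2, and the counting intervals of the pups overlapped.

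**Figure D2:**
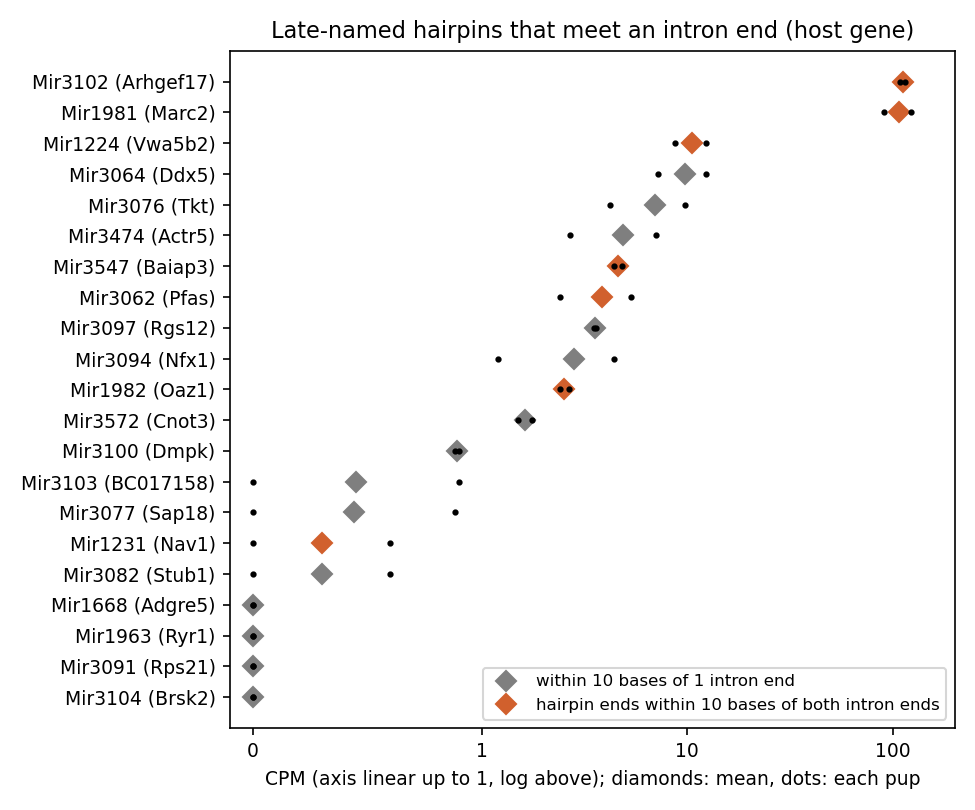
CPM of the 21 late-named genes whose hairpin meets an intron end (axis linear up to 1 and log above), with the host gene in brackets, a diamond for the mean of both pups (orange where the hairpin meets both intron ends, grey where it meets 1) and a dot for each pup. Mir3102 and Mir1981, both spanning an intron, stand near 100 CPM, and the remaining 19 genes lie at a mean of 10.5 CPM or lower.

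Most hairpins of the set lay in a host gene. A same-strand host gene covered 109 of the 147 hairpins, against 954 of 1747 other matched miRNA genes. Of the 13 detected genes, 11 had such a host: 8 lay in introns only and 3 overlapped an exon of at least 1 transcript. Of the 262 other detected genes, 169 had a same-strand host, 99 of them in introns only. Among all hairpins in introns only, 8 of 68 in the set and 99 of 652 others were detected. The 26 genes outside any host gene had 9 with a count, of which Mir1983 and Mir3475 were detected, and of 556 other such genes 103 had a count and 74 were detected. Of the 12 genes with a host on the opposite strand only, 2 had a count and none was detected, against 38 and 19 of 237 other genes.

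Mir3099 lies deep in an intron of Usp29 (chr7:6803587-6803670, plus strand), a deubiquitinase gene of the imprinted Peg3 domain. It had 83 and 169 counts, or 73.3 CPM (58.4 to 90.9) in pup 1 and 50.8 CPM (43.4 to 59.0) in pup 2, with a ratio of 0.692 (0.529 to 0.912). The intervals of the pups just overlap, while that of the ratio excluded 1. Mir1198, in an intron of the X-linked gene Gripap1 (chrX:7807101-7807221, plus strand), had 58 and 129 counts, or 51.2 CPM (38.9 to 66.2) and 38.8 CPM (32.4 to 46.1). The interval of its ratio, 0.756 (0.551 to 1.05), included 1.

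Below 40 CPM the detected genes rested on 12 to 24 counts in pup 1. Mir1955, in an intron of the chromatin reader gene Phf21a (chr2:92191977-92192074), had 21.2 CPM in pup 1 and 16.2 CPM in pup 2. Mir1968, in an intron of Grtp1 (chr8:13189031-13189098), had 21.2 and 15.3 CPM. Mir3067, in an intron of Smoc1, which encodes a calcium-binding matrix protein (chr12:81166151-81166234), had 19.4 and 11.7 CPM. The counting intervals of the pups overlap for all 3. Mir1948 in Ttc39c had 15.9 and 15.0 CPM, and Mir1249, in a noncoding exon of 5031439G07Rik (chr15:84951526-84951623), had 11.5 and 12.3 CPM. Mir3475, outside any host gene (chrX:140310948-140311012), had 12.4 and 10.5 CPM and was the last gene inside the detection threshold. Just outside it were Mir1947 and Mir1224, each at 8.71 CPM in pup 2, and Mir3080, in an intron of Tcf20, at 7.95 and 7.81 CPM.

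The 20 leading genes end with 3 more that missed 10 CPM in at least 1 pup. Mir3057, mostly in an annotated intron of Apba3 and running past its 3′ end into coding sequence, had 12.4 and 6.01 CPM from 14 and 20 counts. Mir1930, over a noncoding exon of Ube2g2, a ubiquitin-conjugating enzyme gene, had 5.30 and 10.2 CPM from 6 and 34 counts. Mir1945, outside any host gene, had 9.72 and 5.71 CPM from 11 and 19 counts. Mir1930 was higher in pup 2 and the other pair lower, and the counting intervals of the pups overlap for each.

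The rest of the set was near the limit of the libraries. Of the 81 genes with a count, 30 had 3 counts or fewer over both pups together, and the median level of the 81 was 1.78 CPM, against 5.38 CPM over all genes with a count. In pup 1 there were 58 genes with a count and in pup 2 there were 77. With pup 2 thinned to the depth of pup 1, 60.3 genes would be expected to have a count there. Counts in both pups were found for 54 genes. Of the 23 genes seen in pup 2 alone none had more than 6 counts, and of the 4 seen in pup 1 alone none had more than 1. For the 66 genes without a count, a count of 0 (limit of 3 counts) still allows a level of 2.65 CPM in the library of pup 1 and of 0.902 CPM in that of pup 2.

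Genes known from the intron cluster of Htr2c, the serotonin receptor gene of brain, were at this limit. Of these, Mir1298 had 2 and 7 counts, Mir1264 had 0 and 1, and Mir1912 had none. Mir3073a, the only gene of the set whose hairpin overlaps another GENCODE miRNA gene on the opposite strand, also had none, nor did Mir3083, which overlaps a RefSeq miRNA gene named Gm51291. Opposite-strand reads over the 147 genes came to 2 in pup 1 and 1 in pup 2, out of 39345 and 104740 opposite-strand counts in the libraries.

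Repeat-like names in the set were almost without counted reads. Of the 12 genes named Mir3470 to Mir3473, 10 had no count, Mir3473d had 1 and 2 counts, and Mir3473g had 0 and 1. Reads that map to several loci were kept out of the gene rows, so these values are uncertain. The mature sequences of 5 of these genes were found, on either strand, in annotated transcripts of 8 to 1067 other genes. The 2 found in most genes are shown, with the seed in capitals.
miR-3470b: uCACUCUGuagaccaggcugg
miR-3473b: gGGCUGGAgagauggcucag
Over the whole set, 9 of the 130 genes with a RefSeq mature sequence had it in another annotated gene. Of these 9 genes only Mir3098 had a count, with 1 and 2. The other 121 genes had 75 with a count and 12 detected, and the 17 without a RefSeq sequence had 5 with a count.

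Seeds were mostly not shared. The 194 mature sequences carried 189 distinct seeds, and 35 of them shared the seed with a mature miRNA of another gene. Among the leading genes, miR-1983 shares UCACCUG with miR-412-3p, whose gene Mir412 had 116 CPM. The seed of miR-3102-5p, UGAGUGG, is that of miR-702-5p, whose gene Mir702 had 9.85 CPM. The seed of miR-1947-3p, CACUGAG, is that of miR-674-5p, whose gene Mir674 had 1125 CPM against 15.0 CPM for Mir1947. Mir1961 carries the seed of the let-7 family, which is abundant in this gland, and had no count in either pup. Its mature sequence is shown beside that of let-7g, with the shared seed in capitals.
miR-1961: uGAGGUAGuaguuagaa
let-7g-5p: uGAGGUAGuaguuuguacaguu
The gene of let-7g had a mean of 57170 CPM. Mir1928, whose mature sequence shares the seed GCUACAU with miR-221 and miR-222, also had no count, while Mir221 had 123 CPM and Mir222 had 145 CPM. A shared seed is a description of the sequences and was not tested as shared targeting.

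By name number, a count was found for 55.1% of the set, 68.8% of genes with numbers below 1000, 22.6% of those from 5000 to below 6600 and 56.0% of those above. Of 465 genes with numbers below 1000, 320 had a count and 240 (51.6%) were detected. Among 146 genes with numbers from 5000 to below 6600, 33 had a count and 3 were detected, and among 275 with higher numbers, 154 had a count and 1 was detected. The highest mean level was 91954 CPM in the earliest names, 464 CPM in the late-named set, 115 CPM in numbers from 5000 to below 6600 and 14.5 CPM above these. Only the range of the set had genes removed. With its 9 genes set aside put back, 20 of 156 genes (12.8%) were detected and the highest mean level was that of Mir1193, at 1671 CPM. These are counts of genes, with no test between the name groups.

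**Figure D3:**
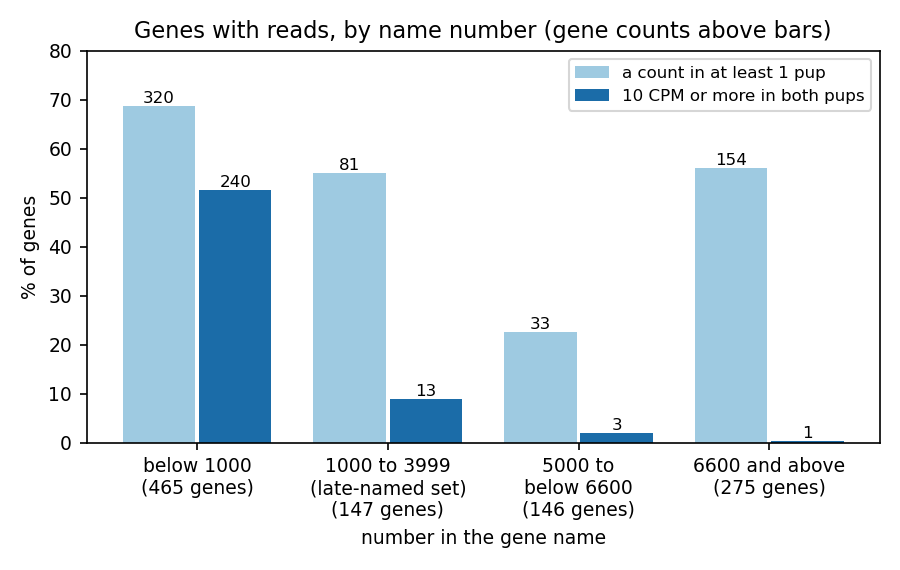
Percentage of genes with a count in at least 1 pup (light bars) and at 10 CPM or more in both pups (dark bars) for 4 ranges of the number in the gene name, with the number of genes above each bar. The late-named set had a count for 55.1% of genes against 68.8% in the lowest numbers, and detected genes were 8.84% (12.8% with the 9 genes set aside put back) against 51.6%.

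The pups were set against each other as littermates of 1 group, with 1 library each, so there is no replicate check of a difference and no p-value. Log2 ratios of pup 2 to pup 1 were taken after adding 1 CPM, among genes whose mean reached 10 CPM. This left 15 genes of the set and 284 genes in all. At least 2-fold apart were 2 of the 15 genes, against 5.28% of all genes tested. With so few genes, that is 1 gene in each direction.

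Mir3105, in an intron of Shank2, a gene of a postsynaptic scaffold protein (chr7:144009254-144009338, plus strand), was the gene higher in pup 2. It had 12 counts in pup 1, or 10.6 CPM (5.48 to 18.5), and 112 counts in pup 2, or 33.7 CPM (27.7 to 40.5). The intervals do not overlap, and the ratio was 3.17 (1.75 to 6.33), a log2 ratio of 1.58, where 3.52% of all genes tested were at least 2-fold higher. Mir1947, in an intron of the peptidase gene Lmln (chr16:33105361-33105445, plus strand), was the gene lower in pup 2. It had 24 and 29 counts, or 21.2 CPM (13.6 to 31.6) and 8.71 CPM (5.84 to 12.5). Its ratio was 0.411 (0.231 to 0.737), a log2 ratio of -1.19, where 1.76% of all genes tested were at least 2-fold lower. With 5 CPM added in place of 1, its log2 ratio was -0.93 and it no longer passed 2-fold.

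Smaller differences mostly had pup 2 as the lower. Of the 15 genes, 12 had a lower CPM in pup 2, against 41.9% of all 284 genes and 39.8% of the 171 genes with means from 10 CPM to the level of Mir1983. With TMM scaling, which moved the median log2 ratio of all genes up from 0.08 to 0.18, 10 of the 15 were lower, as Mir3102 and Mir1948 turned to log2 ratios of 0.03 and 0.02, and of all 284 genes 97 were lower in place of 119. The median log2 ratio of the 15 genes was -0.37, with a range from -1.19 to 1.58. For 4 of the 15 the counting interval of the ratio lay wholly on 1 side of 1, and these were Mir1981, Mir3099 and Mir1947 below 1 and Mir3105 above it.

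The genes under a mean of 10 CPM had the same direction when summed. The 66 of them with a count summed to 183 counts in pup 1, or 162 CPM (139 to 187), and to 397 counts in pup 2, or 119 CPM (108 to 132). The ratio was 0.738 (0.618 to 0.884). The other genes under 10 CPM, 285 with a count, summed to 481 and 466 CPM, a ratio of 0.969 (0.878 to 1.07). For the whole set the ratio was 0.895 (0.843 to 0.951), and without Mir1983 it was 0.826 (0.766 to 0.892), a step chosen after seeing the data. All these ratios are on library sums and were not recomputed with TMM scaling, which would raise each log2 ratio by 0.106. By that shift the interval of the whole set would reach past equal levels. The intervals without Mir1983 and for the set's genes under 10 CPM would stay below equal levels. These intervals hold no variation between animals, so a difference beyond counting error is not one beyond the spread of littermates.

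**Figure D4:**
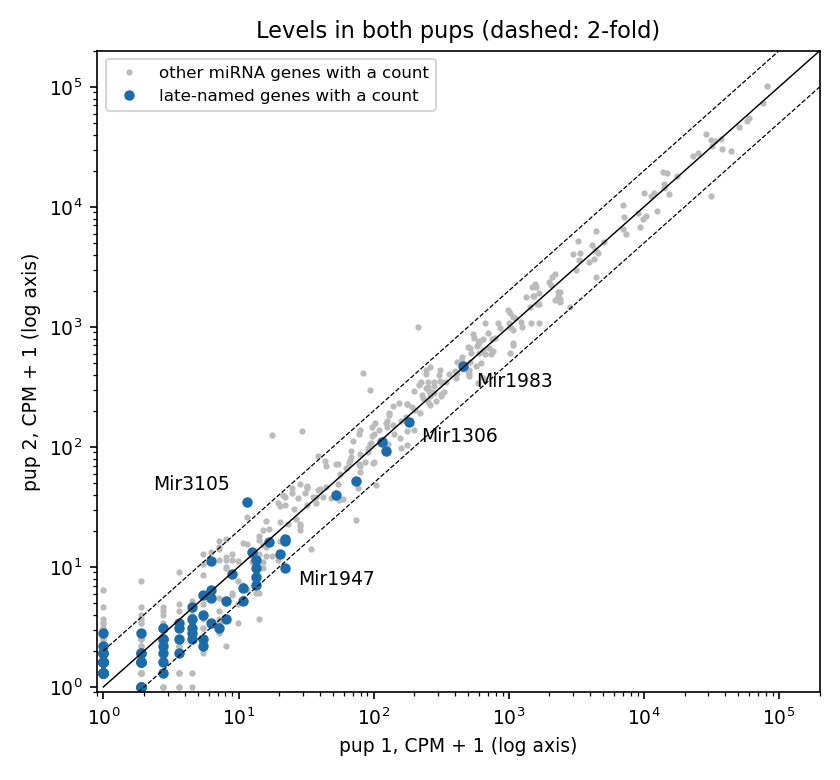
CPM plus 1 in pup 1 (x, log axis) and pup 2 (y, log axis) for each gene with a count, with late-named genes in blue, other miRNA genes in grey, a solid line at equal levels and dashed lines at a 2-fold difference. Mir1983 and Mir1306 lie close to the line of equal levels, Mir3105 above the 2-fold band at 10.6 and 33.7 CPM, and Mir1947 just below it at 21.2 and 8.71 CPM.

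The other contents of the libraries touch the set as follows. The libraries differ 2.94-fold in depth, and multi-mapped reads, which are in no gene row, made up 34.9% and 32.2% of all reads. Among marker miRNAs of cells an adrenal sample can hold, the neuroendocrine list (4 of 4 detected) summed to 39765 and 33410 CPM. The hepatocyte miRNA Mir122 had 2979 and 4081 CPM. The skeletal muscle list (1 of 6 measured genes detected) summed to 84.8 and 415 CPM, with Mir1a-1, Mir133a-1 and Mir133a-2 at 0. These 0 values are uncertain, because reads that map to several gene copies are in no gene row. The epithelial list (3 of 5 detected) summed to 214 and 597 CPM. The endothelial miRNA Mir126a had 81620 and 102288 CPM, and the smooth muscle list (2 of 2 detected) summed to 15116 and 19776 CPM. The leukocyte list (3 of 3 measured) summed to 866 and 1023 CPM and the kidney list (4 of 5 detected) to 293 and 352 CPM. The erythroid list (3 of 3 detected) summed to 339 and 337 CPM, and the pancreas list (0 of 3 detected) to 0.884 and 2.10 CPM, with Mir216a at 0. Apart from the neuroendocrine and erythroid lists, these sums were higher in pup 2, and their part in the pup differences above was not tested. In whole glands, fewer cells of a type and less RNA per cell cannot be told apart.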

How the data were processed

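The authors deposited, for each of the 2 libraries, a table of raw read counts per miRNA gene with unstranded, same-strand and opposite-strand columns. Per the sample notes deposited with the tables, they use assembly mm10 and GENCODE M4. The sources used here do not give the aligner, trimming or counting settings. Which column is the same strand was read from the table layout and its larger sum. Multi-mapped, unmapped and unassigned reads, 49.6% and 47.3% of all reads, stayed out of the gene rows and library sizes. CPM was computed over all 1973 gene rows of the same-strand column. Gene symbols and positions came from GENCODE M21 on GRCm38, the mm10 assembly, for 1894 rows, and the 79 rows without a symbol held 0 counts. Sequences came from RefSeq GRCm38.p6, for 130 of the 147 genes.

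Intervals were exact Poisson, Clopper-Pearson or conditional ratio intervals at 95%, computed with scipy 1.17.1. TMM (edgeR 4.0.16) and DESeq2 1.42.0 size factors served as alternative scalings only. With 1 library per pup, no test was made and no p-value is given. Scripts were tested on simulated data.

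The members and lists were chosen with earlier results of these data known. Genes named are the 20 with the highest mean CPM, those at least 2-fold apart between pups at a mean of 10 CPM or more, the 3 on either side of the detection threshold, those overlapping another small RNA gene, and fixed lists from known biology. Of these lists, Mir1839, Mir3618, Mir3065, Mir3107 and Mir3074-2 have no row in the set under those symbols and so were not analysed here. Any other gene named was chosen after its values were seen, as were the name ranges, the intron-end class, the grouping of Mir3470 to Mir3473, the sums under 10 CPM and the range of levels used for comparison.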

Additional observations from a re-analysis of the deposited data

How the results depend on the processing

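The number of detected genes, 13 at 10 CPM in both pups, was 21 at 5 CPM, 43 at 1 CPM and 20 with the genes that the rule sets aside put back. The counts over all gene rows at 5 and 1 CPM were not taken, so these numbers have no background beside them. The mean share of 0.124% was 0.0638% over all reads in the tables and 0.357% with the genes set aside put back, among them Mir1193 at 1671 CPM. With 1 pup left out at a time the detected genes numbered 14 to 17, since the threshold then applied to 1 pup, the share was 0.117% to 0.131% and the share of the 10 leading genes was 82.8% to 85.4%. At least 2-fold apart were 2 of 15 genes (15 of 284 among all genes), and 1 of 15 with 5 CPM added (11 of 284). It was 8 of 48 at a mean of 1 CPM or more (63 of 432 among all genes). With every gene that had a count it was 10 of 81 (85 of 635 among all genes). The median log2 ratio of -0.37 was -0.27 with TMM and -0.16 with every gene that had a count. No called value changed sign under the alternatives run. Genes with mature sequences elsewhere were looked for in RefSeq hairpins and GENCODE M21 transcripts only, as no genome sequence was used here. None of these genes reached a mean of 10 CPM. Leaving them out therefore could not change the counts of detected genes or of genes 2-fold apart. Thinning pup 2 and leaving out Mir1983 were added after the data were seen. No paired analysis was possible because there is 1 group with 1 library per pup. Depth limits the rest of the set: 1 count is 0.884 CPM in pup 1 and 0.301 CPM in pup 2.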

Other observations

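Within the set, the run of names from 3057 to 3113 had the largest part of its genes with a count. Of its 45 genes, 36 had a count and 4 were detected, and it held 24.5% of the set's counts in pup 1 and 23.3% in pup 2. Over the whole set 55.1% of genes had a count and 8.84% were detected, and over all gene rows 32.2% and 13.9%. The detected part of this run was thus close to that of the set. Of the 59 genes numbered 1668 to 1983, 28 had a count and 5 were detected. Among the 15 genes numbered 1187 to 1306, 9 had a count and 3 were detected, and among the 10 numbered 3547 to 3971, 3 had a count. These name ranges were chosen after the data were seen.

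Predicted folding of the RefSeq hairpins (RNAfold 2.7.2) gave a median free energy of -39.9 kcal/mol per 100 bases for 11 detected genes, -45.2 for 60 genes with a count that were not detected and -43.7 for 46 genes without a count. The interquartile range of the detected genes spanned -50.3 to -37.6, which overlaps that of the genes without a count, -51.1 to -33.1.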
